A study of Caenorhabditis elegans with 165 samples.

Results

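The genes suex-1 (F12A10.7) and srlf-34 (ZK970.7) of the nematode Caenorhabditis elegans were followed across 12 RNA-seq libraries. They are 2 of the 20389 gene identifiers in each count file. Both were chosen by name because their counts were far higher in the strain YPT41 than in the wild-type strain N2, so the difference between YPT41 and N2, and that between YPT41 and 15eh1, is given as a description and without a test. Both genes passed the filter on low counts, which left 13186 genes for testing. The series held 165 samples and studied how an X-specific condensin and active histone marks are distributed over the worm's chromosomes. Its 153 ChIP and input samples are not analysed here. The libraries used were total RNA from whole worms of 3 strains, with 4 libraries each: YPT41, labelled as the X;II fusion of the X chromosome to chromosome II, 15eh1, labelled as the X;V fusion to chromosome V, and N2, which carries no fusion. No treatment was listed for any of them. The library titles name larvae of stages L1 to L3, the series text names L3, and the protocol fields describe embryo chromatin, so the stage is not known more closely. Each fusion is represented by 1 strain, so an effect of the fusion cannot be told apart from any other difference in that strain's background. Nothing in the labels says whether the 4 libraries of a strain came from separate cultures, and p-values therefore measure the spread between these samples, which may be technical.

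As background, suex-1 took its name from a genetic suppressor of defects in the excretory canal, the tubular cell with which the worm excretes water and regulates its salt balance. Worms in salty surroundings accumulate small solutes such as glycerol, and several antimicrobial peptides of the epidermis are known to respond to wounding, fungal infection and osmotic stress. The srlf symbols form a numbered family, and no role is given here for srlf-34. Both genes lie on chromosome II, the chromosome joined to X in YPT41. In RefSeq gene order for WBcel235, suex-1 was gene 1952 and srlf-34 gene 3792 of the 5229 annotated genes counted from the left end, with 1839 annotated genes between them. The annotation release behind the counts is not given in the sources used here, so that order served only to place the genes.

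Gene counts per library ranged from 8237095 to 20573267 in YPT41, from 12153883 to 27079687 in 15eh1 and from 12349109 to 31234047 in N2. Replicate 1 of every strain stood apart from the others. The 6 vitellogenin genes, which encode yolk proteins of adult hermaphrodites, summed to 67454 CPM in YPT41 replicate 1, 159695 in 15eh1 replicate 1 and 167587 in N2 replicate 1. In replicates 2 to 4 the same sum was at most 242 CPM in YPT41, 427 CPM in 15eh1 and 290 CPM in N2. CPM values are counts scaled to 1000000 counts per library, after TMM adjustment of the library size.

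The transcript of suex-1 was detected in every YPT41 library, was close to the limit of detection in 15eh1 and gave no read in N2. It had 97, 173, 47 and 855 counts in YPT41 replicates 1 to 4. In 15eh1 it had 3, 3, 9 and 2 counts, and all 4 N2 libraries were at 0. The 3 strains did not overlap: the lowest YPT41 library lay above every 15eh1 library, and every 15eh1 library lay above N2.

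On the CPM scale, the level of suex-1 was 8.74, 9.57, 5.24 and 53.5 CPM in YPT41. The level in 15eh1 was 0.313, 0.212, 0.391 and 0.0646 CPM. A count of 0 in N2 allows up to 0.305, 0.210, 0.155 and 0.0895 CPM in replicates 1 to 4, taking 3 counts as the limit. For replicate 4 of 15eh1, its 2 counts gave an exact 95% Poisson interval of 0.00782 to 0.233 CPM, which includes the limit of N2 replicate 4. The highest 15eh1 library, replicate 3, had an interval of 0.179 to 0.741 CPM, whose lower end lies under the limits of N2 replicates 1 and 2. Intervals and limits cover counting error only.

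The level of suex-1 within YPT41 was uneven, with a 10.2-fold span between the highest and the lowest library. Replicate 4 held 73.0% of all YPT41 counts of the gene. Pooled over libraries, suex-1 in YPT41 was 556 times a floor of 3 counts over the N2 group, and 213 times that floor without YPT41 replicate 4. The N2 libraries were at 0, and counting error in the YPT41 reads is left out of these values. Against 15eh1, the pooled level in YPT41 was 99.1 times as high (95% counting interval 61.6 to 171), and 38.0 times as high (23.4 to 66.1) without that library. Replicate 4 was also the YPT41 library with the highest summed level of 10 intestine markers (25343 CPM, against 12054 to 13376 CPM in YPT41 replicates 1 to 3) and of 10 excretory cell markers (3199 CPM, against 1393 to 2490 CPM). It was likewise the highest for epidermis markers (4448 CPM, against 1939 to 2985 CPM), muscle markers (30583 CPM, against 17083 to 21819 CPM) and neuron markers (4169 CPM, against 1428 to 3553 CPM), but not for vitellogenins or germline markers. In 15eh1 and N2 replicate 4 was also the highest library for epidermis and intestine markers, and in N2 for muscle markers. In neither strain was it the highest for excretory cell or neuron markers, nor in 15eh1 for muscle markers. No intestine or excretory cell marker was at 0 in all libraries of a strain, but best-3, an excretory cell marker of chromosome II, had only 1, 0, 0 and 1 counts in YPT41, against 33, 122, 398 and 289 in 15eh1 and 13, 127, 255 and 292 in N2. Over the 10 excretory cell markers the median log2 fold change in YPT41 against N2 was -0.04, with 5 of 10 above 0, beside 52.3% of all genes tested. The part of these markers in the level of suex-1 was not tested, and fewer cells of a type cannot be told apart from less RNA per cell in whole worms.

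The transcript of srlf-34 was present in all 12 libraries and followed the same order of strains. It had 587, 1145, 1097 and 4609 counts in YPT41. In 15eh1 it had 70, 120, 108 and 105 counts, and in N2 it had 11, 31, 30 and 51. Here too no library of one strain reached into the range of the next.

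The level of srlf-34 was 52.9, 63.3, 122 and 288 CPM in YPT41, with a mean of 132 ± 109 CPM (SD, n = 4). It was 7.31, 8.46, 4.69 and 3.39 CPM in 15eh1, with a mean of 5.96 ± 2.33 CPM, and 1.12, 2.17, 1.55 and 1.52 CPM in N2, with a mean of 1.59 ± 0.435 CPM. The spread was widest in YPT41, where the highest library was 5.45 times the lowest, against 2.497 times in 15eh1 and 1.94 times in N2.

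The fitted difference of srlf-34 between YPT41 and N2 was 6.36 ± 0.64 on the log2 scale (SE, edgeR's quasi-likelihood fit), and that between YPT41 and 15eh1 was 4.47 ± 0.58. Pooled counts put YPT41 86.0 times above N2 (95% counting interval 72.0 to 103.7) and 26.5 times above 15eh1 (23.99 to 29.4). Replicate 4 supplied 62.0% of the YPT41 counts, and without it the ratios were 46.4 to N2 and 14.3 to 15eh1. For suex-1 the fitted log2 difference depends on the prior count, because N2 was at 0, and it is not used here.

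**Figure D1:**
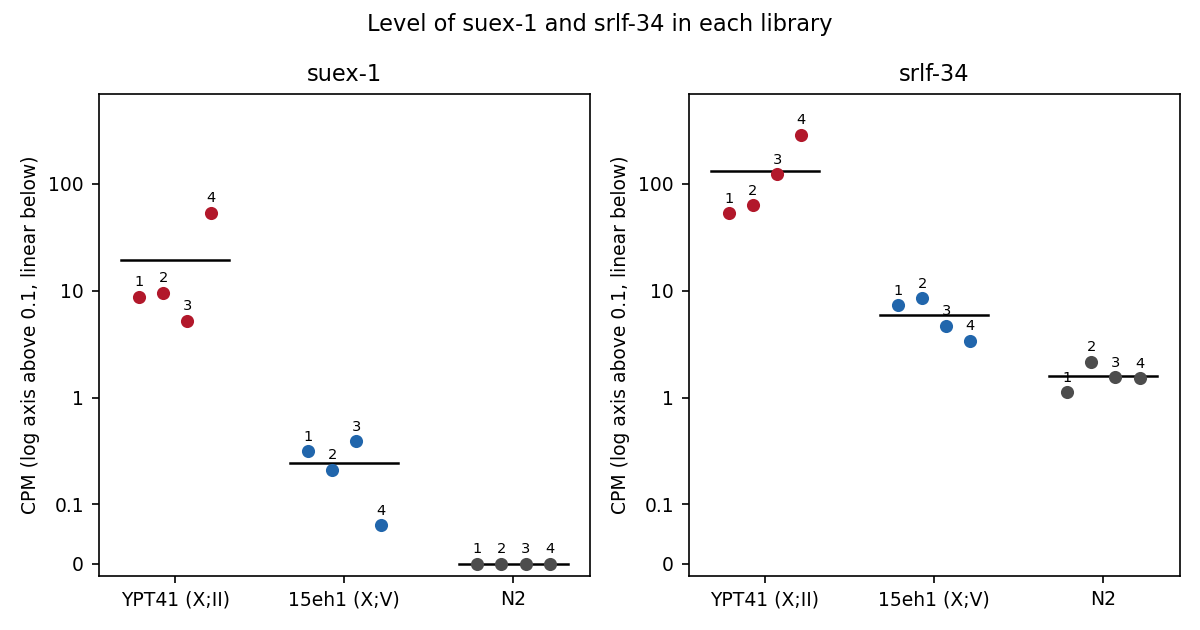
Level of suex-1 (left) and srlf-34 (right) in each library, in CPM of the TMM-scaled library size, on an axis that is logarithmic above 0.1 and linear below. Points are libraries with their replicate numbers and bars are strain means over 4 libraries. The 3 strains occupy separate ranges for both genes, with YPT41 at 5.24 to 53.5 CPM for suex-1 and 52.9 to 288 CPM for srlf-34, and N2 at 0 and 1.12 to 2.17 CPM.

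The comparison of 15eh1 with N2 was not used to choose the genes, but its N2 libraries were, since both genes were picked as far lower there. The levels of both genes were higher in all 4 15eh1 libraries than in any N2 library, which is given as a description for that reason. The mean log2 CPM differed by 1.55 for suex-1 and by 1.78 for srlf-34 between 15eh1 and N2, with a prior count of 2 on which the value for suex-1 depends. In pooled counts, suex-1 in 15eh1 was 5.61 times a floor of 3 counts over the N2 group. It was 3.75 to 8.23 times that floor when 1 of the 4 15eh1 libraries was left out. These values leave out the counting error of the 17 reads in 15eh1, so they are no lower bounds. The pooled level of srlf-34 was 3.24 times as high in 15eh1 as in N2 (95% counting interval 2.64 to 4.00), and 2.79 to 3.99 times when 1 of the 4 was left out.

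The fitted log2 fold change of srlf-34 in this comparison was 1.89 ± 0.53 (SE, edgeR's quasi-likelihood fit). It was not called by edgeR, with the replicate number as a block or by DESeq2. Its N2 libraries were used to choose it, so a test is not independent of that choice and no p is given. No p is given for suex-1 either, which passed the filter on low counts through the YPT41 libraries. Over all genes, edgeR's quasi-likelihood test called 0 of 13186 in 15eh1 against N2, a share of 0%, while 206 genes (1.56%) had an unadjusted p under 0.05. DESeq2 called 18 genes (0.131%) and the block called 9 (0.0683%). Libraries of 15eh1 lay above all N2 libraries without overlap for 127 genes, or 0.963% of those tested.

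An order in which every YPT41 library lay above every 15eh1 library, and every 15eh1 library above every N2 library, was found for 9 genes, or 0.0683% of those tested. These were suex-1, srlf-34, Y41G9A.10, Y69H2.10, C04A11.5, F54B11.5, K01A6.8, the astacin protease gene nas-9 and memo-1, a homolog of the human MEMO1 gene. The names other than the first pair were read off after the order was computed. The order includes the contrast by which suex-1 and srlf-34 were picked, so nothing is read from their place in it.

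The proportion of the pair varied between libraries. In YPT41 there were 6.05, 6.62, 23.3 and 5.39 counts of srlf-34 for each count of suex-1 in replicates 1 to 4. The value in replicate 3 had a 95% counting interval of 17.4 to 31.96, while the intervals of the other 3 libraries together ran from 4.87 to 7.81. These intervals hold no spread between libraries, so the difference of replicate 3 was not tested. That library had the lowest level of suex-1 among the YPT41 libraries and the second highest of srlf-34. In 15eh1 the ratio was 23.3, 40.0, 12 and 52.5, with intervals so wide that they overlapped one another. It was undefined in N2, where suex-1 was at 0. Over the 12 libraries the log2 levels of the pair had a Pearson r of 0.975 (Spearman rho 0.933), which mostly reflects the strain order. Deviations from the strain means had an r of 0.666 (rho 0.459), with the libraries' depth and scaling shared by both genes. The N2 deviations of suex-1 were all 0, because it had no count there.

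Genes next to suex-1 and srlf-34 on chromosome II were examined to see whether the difference was local. Of the 10 annotated genes on either side of each gene, 40 in all, 26 were in the count files and 18 were tested, 8 around suex-1 and 10 around srlf-34. In YPT41 against N2 edgeR's test called 0 of these 18, beside 0.22% of all genes tested, while 3 had an unadjusted p under 0.05, beside 8.82% of all genes, and DESeq2 called 1, beside 2.87%. With the replicate block it called 2, beside 5.2% of all genes. Both of those, F12A10.9 and F12A10.1, adjoin suex-1. The gene called by DESeq2 was F12A10.9. That gene passed the filter on low counts through the YPT41 libraries, so its calls in these counts are no support for a local difference.

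F12A10.9, the next annotated gene to the right of suex-1, had 25, 81, 27 and 302 counts in YPT41. It had 4, 5, 9 and 6 counts in 15eh1 and 0, 0, 8 and 3 in N2. All YPT41 libraries lay above all others, with replicate 4 again far above the rest, while 15eh1 and N2 overlapped. The pooled level in YPT41 was 56.3 times that in N2 (95% counting interval 31.1 to 114), and 24.4 times without YPT41 replicate 4. The fitted log2 fold change was 5.63 ± 1.03 (SE). The filter removed F12A10.9 when 15eh1 and N2 were fitted alone, so it passed through the YPT41 libraries. No p is therefore given for it, and its calls with the replicate block and by DESeq2 are no support for the rise.

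F12A10.1, the next annotated gene to the left, had 66, 164, 99 and 425 counts in YPT41. It had 22, 67, 156 and 157 counts in 15eh1 and 10, 27, 112 and 161 in N2. On the CPM scale YPT41 lay between 5.95 and 26.6 CPM, against 1.02 to 5.78 CPM in N2, so the groups met closely without overlapping. The log2 fold change was 1.95 ± 0.62 (edgeR adjusted p = 0.300, or 0.0091 with the replicate block), and 1.26 (adjusted p = 0.779) without YPT41 replicate 4.

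Beyond F12A10.9 and F12A10.1 no neighbour was called in the fit with or without the block. F12A10.8, the second gene to the right of suex-1, differed by -0.26 ± 1.01 on the log2 scale (adjusted p = 0.964), and fzy-1, which encodes the worm's Cdc20 homolog and is the third, by -0.69 ± 0.97 (adjusted p = 0.892). Both had their highest level in replicate 1 of every strain, and their sign turned to 1.25 and 0.76 without N2 replicate 1. F12A10.2 and F12A10.6, the second and the third gene to the left, were at 0 in all 12 libraries. The median log2 fold change over the 8 tested genes around suex-1 was -0.22.

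Around srlf-34 no neighbour was called. C07E3.9, gene 10 to the right, lay at 2.99 to 5.02 CPM in YPT41, above every N2 library (at most 2.94 CPM) and every 15eh1 library (at most 2.65 CPM). Its log2 fold change in YPT41 against N2 was 0.87 ± 0.38 (edgeR adjusted p = 0.536). The annotation places srlf-34 inside the span of gcy-5, which encodes a receptor guanylate cyclase of a salt-sensing neuron. The gene gcy-5 had 5, 21, 25 and 17 counts in YPT41, 2, 10, 13 and 35 in 15eh1, and 0, 14, 15 and 20 in N2, so the strains overlapped. Its log2 fold change in YPT41 against N2 was 1.15 ± 0.78 (edgeR adjusted p = 0.781, or 0.203 with the replicate block). The strand setting of the counting is not given in the sources used here, so reads from overlapping genes cannot be told apart. The gene idpp-8, next on the right, differed by 0.60 ± 0.67 (adjusted p = 0.865). M02G9.4 and ZK970.8 had 6 and 5 counts in YPT41, 0 and 4 in 15eh1 and 0 and 5 in N2 over all libraries. The median over the 10 tested genes around srlf-34 was 0.03.

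**Figure D2:**
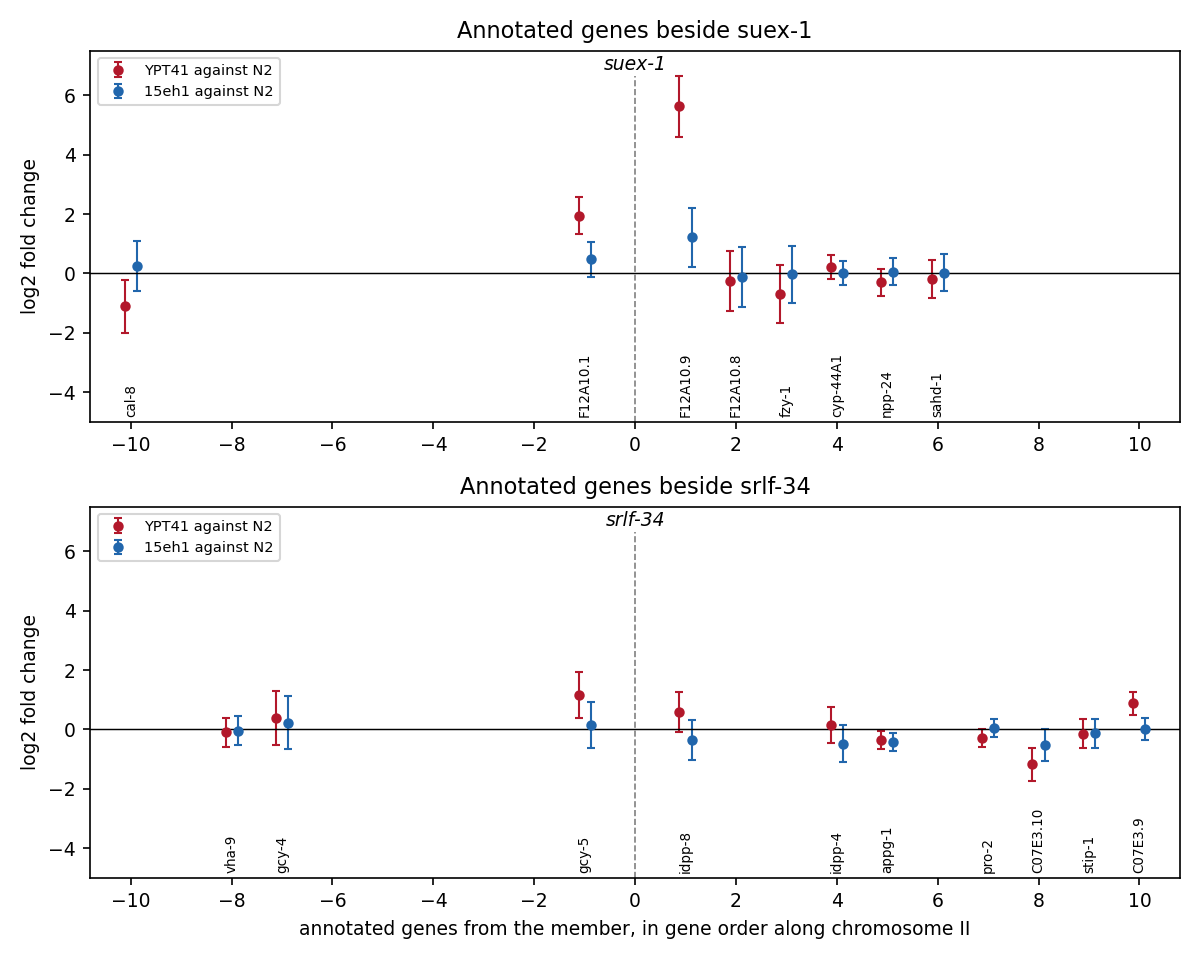
Log2 fold change of the tested annotated genes around suex-1 (top) and srlf-34 (bottom), by their place in gene order along chromosome II, for YPT41 against N2 and 15eh1 against N2; bars are standard errors of the edgeR fit and the dashed line marks the gene itself. Around suex-1 the values of F12A10.9 (5.63) and F12A10.1 (1.95) stand above the rest in YPT41, while around srlf-34 the values in YPT41 lie between -1.18 and 1.15.

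The other genes of the srlf family were looked at because they share a name with srlf-34. Of 35 other symbols, 30 were in the count files, with 3 on chromosome II, 2 on III, 20 on IV and 5 on V, and 16 were tested. In YPT41 against N2 edgeR's test called 0 of 16, while 5 had an unadjusted p under 0.05, beside 8.82% of all genes, and DESeq2 called 2, beside 2.87%. Of the 16, 11 had a log2 fold change above 0 and their median was 0.63, beside a median of 0.03 and a share of 52.3% above 0 over all genes tested. With the replicate block 4 of 16 rose (srlf-7, srlf-12, srlf-30 and srlf-31), beside 4.1% of all genes. In 15eh1 against N2 edgeR and DESeq2 called 0 of 16, and the median was 0.13. Of these 16, 1 had an unadjusted p under 0.05, beside 1.56% of all genes.

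The 4 srlf genes with the highest mean CPM were srlf-1, srlf-7, srlf-32 and srlf-30. The level of srlf-7 was 338, 292, 486 and 430 CPM in YPT41, 167, 194, 235 and 243 CPM in 15eh1, and 111, 134, 210 and 145 CPM in N2. Its YPT41 libraries lay above all others, with a log2 fold change against N2 of 1.36 ± 0.27 (edgeR adjusted p = 0.0797, or 0.0038 with the replicate block). The level of srlf-30 was 17.1, 36.6, 64.8 and 48.3 CPM in YPT41, 7.31, 21.9, 30.6 and 18.8 CPM in 15eh1, and 4.58, 16.7, 17.97 and 13.3 CPM in N2. Within each replicate number the YPT41 library was the highest of the 3, though the strains overlapped, and the log2 fold change was 1.66 ± 0.54 (adjusted p = 0.320, or 0.0013 with the block). For srlf-1 the log2 fold change was 0.84 ± 0.36 (adjusted p = 0.533), and for srlf-32 it was 0.28 ± 0.50 (adjusted p = 0.912).

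Lists of genes for osmotic balance, the epidermis and the excretory canal were set beside suex-1 and srlf-34. In YPT41 against N2, 5 of the 74 tested genes on these 6 lists rose by edgeR's test, beside 0.159% of all genes. All 5 were myo-inositol transporters or caenacins. The caenacin genes cnc-6 and cnc-2 among them passed the filter on low counts through the YPT41 libraries. This count, and that with the replicate block, which also holds both, are therefore no support for a rise of the lists. With the replicate block 16 were called, beside 5.2% of all genes. In 15eh1 against N2 edgeR, the block and DESeq2 called 0 of the 74, and 3 had an unadjusted p under 0.05, beside 1.56% of all genes. A rise of hmit-1 and cnc genes in YPT41 was known from these libraries when the lists were drawn up, so their counts are not independent evidence.

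Among 7 genes of osmolyte synthesis and transport, hmit-1.1 and hmit-1.2 rose in YPT41. Both encode transporters of myo-inositol, a solute that cells take up in salty surroundings. The level of hmit-1.1 was 37.0, 140.0, 122 and 272 CPM in YPT41, 16.7, 9.52, 5.94 and 13.4 CPM in 15eh1, and 9.56, 7.71, 12.9 and 21.7 CPM in N2. Its log2 fold change in YPT41 against N2 was 3.46 ± 0.59 (edgeR adjusted p = 0.0385). The level of hmit-1.2 was 28.4, 93.4, 61.0 and 152 CPM in YPT41, 9.61, 10.93, 12.2 and 8.84 CPM in 15eh1, and 11.4, 9.95, 15.7 and 15.0 CPM in N2, with a log2 fold change of 2.68 ± 0.44 (adjusted p = 0.0336). Each kept its call in 1 of 8 fits that left out a library, the one without YPT41 replicate 1, with adjusted p up to 0.238 for hmit-1.1 and 0.233 for hmit-1.2 without N2 replicate 2. Both also lost it without the filter on low counts and with the 2 strains fitted alone. In both, the libraries of 15eh1 and N2 overlapped, and there the log2 fold changes were -0.19 and -0.32. The glycerol-3-phosphate dehydrogenase genes gpdh-1 and gpdh-2, which serve the synthesis of glycerol, differed by 1.98 ± 0.80 (adjusted p = 0.485) and 0.99 ± 0.38 (adjusted p = 0.433). All 7 genes had values above 0, beside 52.3% of all genes tested, with a median of 0.99.

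Among the 13 tested epidermal antimicrobial peptides, the caenacin genes cnc-6, cnc-2 and cnc-4 rose in YPT41, and 11 of 13 rose with the replicate block, beside 4.1% of all genes. The level of cnc-6 was 13.1, 8.63, 3.90 and 15.8 CPM in YPT41, 0.627, 0.0705, 0.824 and 0.129 CPM in 15eh1, and 0.203, 0.0701, 0.155 and 0.0298 CPM in N2. The level of cnc-2 was 2.43, 5.86, 6.02 and 15.9 CPM in YPT41, 0.313, 0.564, 0.217 and 0.194 CPM in 15eh1, and 0.102, 0.1401, 0.103 and 0.298 CPM in N2. The level of cnc-4 was 24.2, 36.7, 40.6 and 66.5 CPM in YPT41, 4.91, 14.4, 9.94 and 7.42 CPM in 15eh1, and 2.03, 5.04, 6.56 and 5.01 CPM in N2. All 3 genes had their highest level in YPT41 replicate 4, and their 15eh1 and N2 libraries overlapped. The log2 fold changes in YPT41 against N2 were 6.57 ± 0.90 for cnc-6, 5.39 ± 0.69 for cnc-2 and 3.17 ± 0.47 for cnc-4 (edgeR adjusted p = 0.0182 for cnc-4). The filter on low counts removed cnc-6 and cnc-2 when 15eh1 and N2 were fitted alone. Both passed it through the YPT41 libraries, so no p is given for them and their calls are no support for the rise. With 1 library left out, cnc-4 kept its call in 2 of 8 fits. It lost the call without replicate 2, 3 or 4 of N2 and without replicate 2, 3 or 4 of YPT41, with edgeR adjusted p up to 0.162. Over the 13 genes the median was 2.35 in YPT41 and 0.49 in 15eh1. All values were above 0 in both, beside 52.3% of all genes tested in YPT41 and 51.0% in 15eh1. In YPT41 8 genes, cnc-6 and cnc-2 among them, lay above N2 without overlap, beside 3.75% of all genes tested. The comparisons of YPT41 and 15eh1 share their N2 libraries.

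On the remaining 4 lists edgeR called no gene without the block, beside 0.22% of all genes. DESeq2 called 1, on the excretory canal list, beside 2.87% of all genes. Of 8 regulators of the osmotic response, osm-8 differed by -0.86 ± 0.37 (adjusted p = 0.533) and osm-11 by 0.58 ± 0.32 (adjusted p = 0.664) in YPT41 against N2. The median of that list was 0.13, and 1 of its 8 genes had an unadjusted p under 0.05, beside 8.82% of all genes. Of 11 tested aquaporins, which form water channels, aqp-8 of the excretory canal averaged 111 ± 59.2 CPM in YPT41, 37.2 ± 16.0 CPM in 15eh1 and 41.3 ± 19.5 CPM in N2, with a log2 fold change of 1.42 ± 0.51 (adjusted p = 0.397, or 0.0121 with the block). The aquaporin gene aqp-4 had a value of -1.07 ± 0.41 (adjusted p = 0.444, or 0.0139 with the block). Of the 11 aquaporins 3 had an unadjusted p under 0.05, beside 8.82% of all genes. Of 31 genes of the excretory canal 4 had an unadjusted p under 0.05, beside 8.82% of all genes. Of the same 31, 9 had values above 0, beside 52.3% of all genes, with a median of -0.20. In that list let-653, which encodes a protein of the matrix lining the excretory duct, had a value of -0.94 ± 0.26 (adjusted p = 0.202, or 0.0269 with the block), and exc-9, needed for canal shape, 1.05 ± 0.37 (adjusted p = 0.381). The 6 collagens of the cuticle's annular furrows had a median of -0.06 and no unadjusted p under 0.05, with dpy-2 at -0.20 ± 0.56 (adjusted p = 0.949) and dpy-10 at -0.16 ± 0.55 (adjusted p = 0.960). The summed level of 10 epidermis markers was 1939 to 4448 CPM in YPT41 and 1932 to 4571 CPM in N2, and that of 10 excretory cell markers was 1393 to 3199 CPM in YPT41 and 2122 to 4249 CPM in N2.

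**Figure D3:**
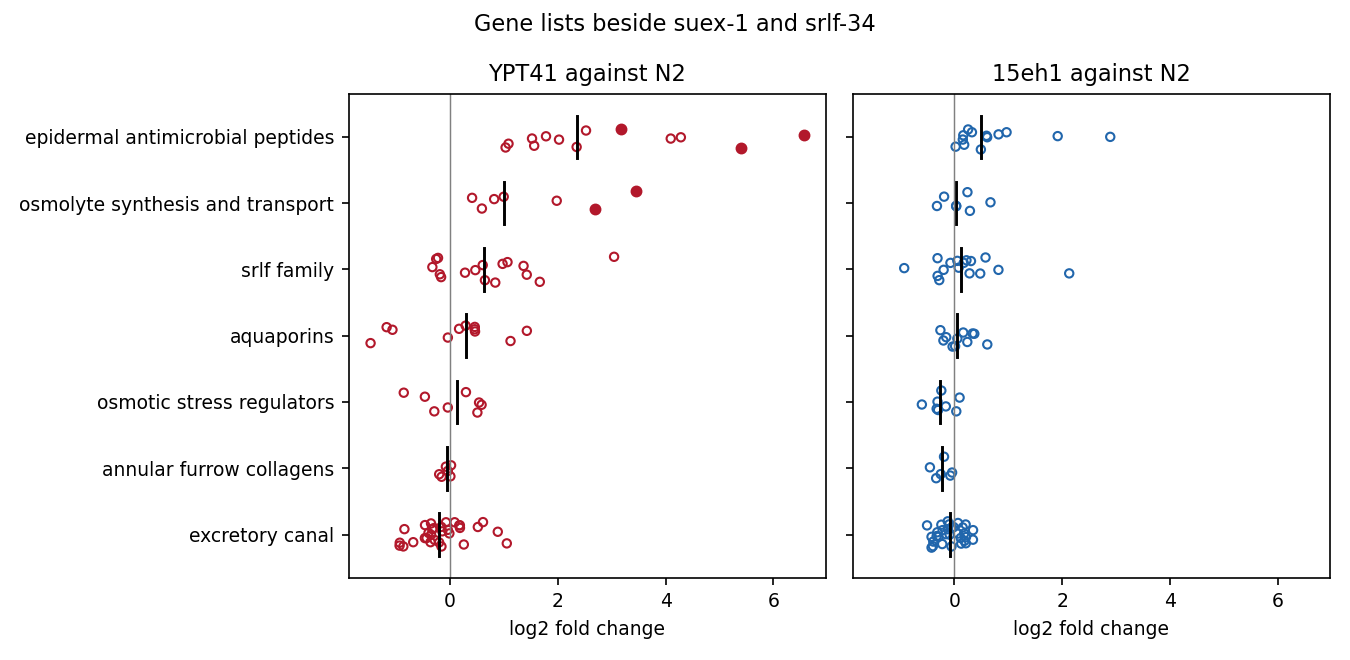
Log2 fold change of each tested gene on 7 lists, in YPT41 against N2 (left) and 15eh1 against N2 (right). Circles are genes, filled where the edgeR adjusted p was under 0.05, and bars are list medians. In YPT41 the epidermal peptides (median 2.35) and the osmolyte genes (median 0.99) lie furthest above 0 and hold the 5 filled circles, and in 15eh1 none is filled. The filled circles include cnc-6 and cnc-2, which passed the filter on low counts through the YPT41 libraries and are no support for the rise.

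The genes whose levels most resembled those of suex-1 and srlf-34 were named by Pearson's r of log2 CPM over the 12 libraries, among all tested genes. For suex-1 the 6 highest were Y41G9A.10 (0.982), cnc-6 (0.967), cnc-2 (0.965), ttr-59 (0.963), F12A10.9 (0.963) and C18D11.6 (0.962). For srlf-34 they were Y41G9A.10 (0.985), cnc-2 (0.974), C18D11.6 (0.960), F32G8.3 (0.956), Y69H2.10 (0.955) and ttr-59 (0.955). Of each 6, 4 were on both lists: Y41G9A.10, cnc-2, C18D11.6 and ttr-59, which encodes a transthyretin-related protein. These values rest on the same libraries, are carried by the strain order and have no p. Since a gene with this likeness is high in YPT41 by its choice, the differences of the genes chosen for it are a description, with no test.

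Y41G9A.10, on the X chromosome, headed both lists. Its level was 23.6, 21.9, 23.4 and 66.7 CPM in YPT41, 3.55, 7.40, 4.47 and 2.71 CPM in 15eh1, and 1.93, 2.102, 2.22 and 1.76 CPM in N2. As for srlf-34 and suex-1, the strains did not overlap and YPT41 replicate 4 was the highest library. The fitted log2 fold change was 4.08 ± 0.48 (SE) in YPT41 against N2 and 1.17 ± 0.43 in 15eh1 against N2.

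The other genes of these lists differed in how far 15eh1 stood from N2. Y69H2.10 on V averaged 19.7 ± 3.96 CPM in YPT41, 9.29 ± 0.8294 CPM in 15eh1 and 5.21 ± 1.07 CPM in N2, and it was among the 9 genes with no overlap between strains. C18D11.6 on III averaged 25.5 ± 29.2 CPM in YPT41, 1.76 ± 0.977 CPM in 15eh1 and 0.857 ± 0.423 CPM in N2. The level of ttr-59 on X averaged 26.9 ± 12.04 CPM in YPT41, 9.41 ± 1.48 CPM in 15eh1 and 7.98 ± 0.952 CPM in N2. In C18D11.6, ttr-59 and F32G8.3 on V, the libraries of 15eh1 and N2 overlapped. In YPT41 against N2 the log2 fold changes were 1.91 ± 0.26 for Y69H2.10, 4.87 ± 0.81 for C18D11.6, 5.16 ± 0.85 for F32G8.3 and 1.75 ± 0.31 for ttr-59 (SE).

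**Figure D4:**
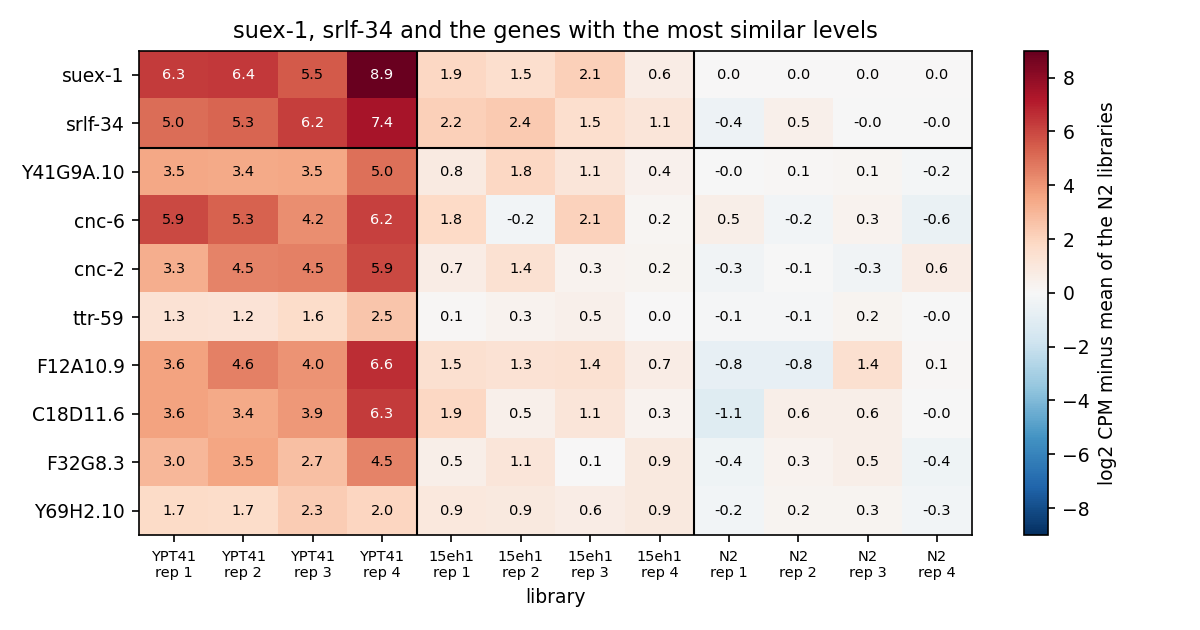
Log2 CPM (prior count 2) minus the mean of the N2 libraries for suex-1, srlf-34 and the 8 genes most similar to either over the 12 libraries. Columns are libraries, with YPT41 left, 15eh1 in the middle and N2 right, and red marks a level above the N2 mean. The 15eh1 libraries lie at or above 0 in all rows but cnc-6, where replicate 2 lies below, and YPT41 replicate 4 is the highest column in all rows but Y69H2.10.

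With the strain means removed, other genes came first. For suex-1 the 6 highest correlations of deviations were with rpa-2 (0.967), the cyclophilin gene cyn-7 (0.955), the immunophilin gene fkb-6 (0.951), T20B12.7 (0.943), ZK470.2 (0.942) and unc-23 (0.928), a BAG-domain co-chaperone gene. For srlf-34 they were with Y72A10A.1 (0.928), egrh-1 (0.904), the neuropeptide gene flp-2 (0.897), F40F4.7 (0.885), nlp-89 (0.876) and BE10.4 (0.871). No gene was on both lists. For suex-1 the deviations of the N2 libraries were all 0, since it had no N2 count, and those of 15eh1 rest on 2 to 9 counts. Its correlations therefore rest on the YPT41 libraries and on few 15eh1 reads. The level of unc-23 was 118, 180, 71.2 and 397 CPM in YPT41, 276, 310, 301 and 179 CPM in 15eh1, and 308, 313, 259 and 256 CPM in N2. Like suex-1 it was lowest in replicate 3 and highest in replicate 4 within YPT41, and lowest in replicate 4 within 15eh1. The level of flp-2 was 18.5, 24.1, 49.0 and 79.7 CPM in YPT41, the same order of libraries as for srlf-34. How far these lists hold under another measure of likeness is given with the other alternatives.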

How the data were processed

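Total RNA of 12 whole-worm libraries was measured by RNA-seq. The authors deposited whole-number read counts per gene, 1 table per library. The submitters' processing notes list TopHat2 2.1.1, SAMtools 1.6 and HTSeq without roles. Neither the genome build nor the annotation release or strand setting is given in those notes or the labels. Summary lines stayed out of library sizes: their shares in a library were 2.48% to 4.25% for reads outside features, 0.656% to 0.893% for ambiguous reads and 13.2% to 22.7% for reads mapped to several positions. Of 20389 identifiers, 19879 matched the RefSeq gene table (WBcel235), used for symbols and gene order. The lowest chi-square per gene between libraries of a strain was 23.8, so none repeated another.

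The quasi-likelihood test of edgeR 4.0.16 was run in R 4.3.3 (TMM scaling, filterByExpr by strain, strain as the only term, all 12 libraries, Benjamini-Hochberg adjustment over all genes tested, threshold 0.05). SEs are the log2 fold change divided by the square root of F. The code was tested on simulated data. Alternatives were RLE scaling, no filter, DESeq2 1.42.0, the 2 strains of a contrast only, the replicate number as a block, replicates 2 to 4 only (with and without the block), and each library left out. Same-numbered libraries of different strains deviated together (r of 0.319 to 0.942 over 12 pairs), which rested largely on replicate 1: in replicates 2 to 4, 4 of 9 pairs had r above 0.1 (-0.123 to 0.438). Values with the block are therefore given where they change a call.

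The 2 genes, the lists and the tests were chosen with earlier results of these data known. Named were the 3 nearest neighbours on each side, the 4 srlf genes with the highest mean CPM, the 2 genes of each list with the smallest adjusted p and any called, and the 6 most similar genes by each measure. The genes C07E3.9, gpdh-1 and gpdh-2 were named after their values were seen. No protein or promoter sequences were used here.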

Additional observations from a re-analysis of the deposited data

Results flagged for a closer look

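In groups of 4 libraries, a library was marked where its gap to the nearest other library was, as a share of the group's range, above Dixon's 95% limit. Of 126 groups, over suex-1, srlf-34 and 40 other named genes, 18 were marked. That limit marks about 1 group in 20 where values are independent and normal. These groups share libraries, and some of the genes were chosen for their likeness to suex-1 or srlf-34, so the count was not tested against that share.

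YPT41 replicate 4 stood out as the highest library for suex-1 at 53.5 CPM, where the next was 9.57 CPM. The same library was marked for F12A10.9 beside suex-1 (18.9 CPM), Y41G9A.10 (66.7 CPM), C18D11.6 (69.3 CPM), T20B12.7 (219.6 CPM) and ZK470.2 (974.6 CPM). Of these genes, each was also chosen as most like suex-1, in which YPT41 replicate 4 is the highest library, so their marks follow in part from that choice. In srlf-34 that library was also the highest, at 288 CPM, but was not marked.

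Replicate 1 was marked as the highest library for F12A10.8 in YPT41 (13.8 CPM), 15eh1 (18.2 CPM) and N2 (20.2 CPM), and for fzy-1 in YPT41 (79.0 CPM), 15eh1 (134 CPM) and N2 (148 CPM). It was also the highest for osm-11 in 15eh1 (1263 CPM) and N2 (1185 CPM) and for osm-8 in N2 (53.2 CPM). It was the lowest for aqp-4 in 15eh1 (13.99 CPM) and for dpy-2 in N2 (34.4 CPM). The remaining mark was N2 replicate 3 for ttr-59, at 9.40 CPM.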

How the results depend on the processing

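The fitted log2 fold change of srlf-34 in YPT41 against N2 was 5.55 to 6.55 over 15 alternatives. In 15eh1 against N2 it was 1.61 to 2.09, and srlf-34 was called in none of these fits. The filter removed suex-1 when 15eh1 and N2 were fitted alone.

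Neighbouring genes called in YPT41 against N2 numbered 0 in the reported fit and 2 with the replicate block, while DESeq2, replicates 2 to 4, and replicates 2 to 4 with the block called 1 each. In each fit with a call F12A10.9 was among the genes called, and its calls are no support for a local difference. Leaving out 1 library gave 0 calls throughout. Listed genes called in YPT41 against N2 numbered 5 as reported, 3 without the filter and 1 with the 2 strains alone. They numbered 16 with the replicate block and 8 in replicates 2 to 4 with the block. DESeq2, fitted without that filter, called 11, against 10 among the 74 genes tested in the reported fit. Leaving out 1 library gave 0 to 5 calls, with 0 without N2 replicate 2 or 3 and 1 without YPT41 replicate 4. The 5 calls as reported include cnc-6 and cnc-2, which passed the filter through the YPT41 libraries, so their calls are no support for the rise.

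Of the 6 genes most like suex-1 over the 12 libraries, 1 was kept with Spearman's rho and 2 in replicates 2 to 4; for srlf-34 it was 2 and 2. Of the 6 by deviations, suex-1 kept 3 with rho and 1 in replicates 2 to 4, and srlf-34 kept 4 and 0.

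Some uncalled values changed sign. F12A10.8 in YPT41 was 0.12 with the replicate block, 0.25 in replicates 2 to 4 and 0.26 with both. Leaving out 1 library, YPT41 against N2 ranged over -1.32 to 1.25 for F12A10.8, -1.82 to 0.76 for fzy-1, -0.56 to 0.012 for dpy-10 and -0.094 to 0.51 for srlf-32, and 15eh1 against N2 over -0.43 to 0.14 for hmit-1.1. The causes were not tested. The values of suex-1 in 15eh1 rest on 17 reads in all.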
